A study of Mus musculus with 8 samples.

Results

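The genes of the cytotoxic granule were examined in CD4 T cells: the granzymes *Gzma*, *Gzmb*, *Gzmc*, *Gzmd*, *Gzme*, *Gzmf*, *Gzmg* and *Gzmk*, the pore-forming protein perforin (*Prf1*), and serglycin (*Srgn*). These 10 genes were taken by name from the 23284 genes in the deposited tables. RNA was sequenced from 4 groups of mouse cells with 2 libraries each, all taken from DO11.10 Tg animals, a strain with a transgenic T cell receptor that recognizes an ovalbumin peptide. The naive group held splenic CD4 T cells sorted as CD44low CD62Lhi, and the 3 effector groups were such cells cultured for 6 days with the peptide and irradiated splenocytes from which T cells had been removed. Th1 cultures received IL-2 (30 U/ml), IL-12 (100 U/ml) and an Ab to IL-4 (1 μg/ml). Th2 cultures received IL-2 (30 U/ml), IL-4 (100 U/ml) and an Ab to IFN-γ (10 μg/ml). For Th17, the medium held IL-23, IL-6 and IL-1β (10 ng/ml each) with both antibodies (10 μg/ml each), and no IL-2 is named. The animals were young adults, and nothing in the labels says that same-group libraries came from separate animals or cultures, so the p-values below measure the spread between these libraries only.

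Granzymes are serine proteases that killer lymphocytes store in lysosome-like granules bound to the proteoglycan serglycin. When the granule is released onto a target cell, perforin opens the way for granzymes into that cell, where granzyme B cleaves proteins after aspartate and granzyme A, a tryptase, cleaves after basic residues. The pathway is best known from CD8 T cells and NK cells, and CD4 T cells can take up parts of it after activation.

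Levels are given as FPKM, in which the fragments of each gene are divided by exon length and sequencing depth, so that they can be compared between genes. The 2 values for a group are those of replicates 1 and 2, in that order. Each value came with an interval, from which the number of sequenced fragments behind it was estimated. These numbers summed to 14463466 to 21058286 a library, with the naive libraries lowest, and they speak of counting error only. Differences are on the log2(FPKM + 1) scale, which understates the change of genes with low values, and were tested with limma over the 11198 genes whose mean FPKM over the 8 libraries was at least 1. Of the 10 genes, 5 passed this filter (*Gzma*, *Gzmb*, *Gzmc*, *Prf1* and *Srgn*); *Gzmd*, *Gzme*, *Gzmf*, *Gzmg* and *Gzmk* did not. In bulk RNA, fewer cells of a type and less RNA per cell cannot be told apart.

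The libraries carried the defining RNA of their groups. The summed FPKM of *Cd4*, *Cd3e*, *Cd3d* and *Cd3g* was 879 to 1567 in every library, *Tbx21* was at 45.1 and 50.7 in Th1 and at most 1.66 elsewhere, *Il4* was at 129 and 97.6 in Th2 and at most 5.003 elsewhere, and *Il17a* was at 347 and 335 in Th17 and at most 0.711 elsewhere. Summed markers were at 2.15 to 11.4 for B cells and 0.126 to 2.29 for dendritic cells. Those of macrophages and monocytes were at 17.6 to 20.0 in naive cells and 6.95 to 7.32 in Th1. They were at 13.3 to 21.4 in Th2 and 14.6 to 14.7 in Th17. Of these, *C1qa* was at 7.64 to 9.01 in naive cells and at most 0.151 elsewhere. *Lyz2* was at 11.7 to 19.9 in Th2 and 4.15 to 4.25 in Th1. *Elane*, 1 of 6 listed genes of neutrophil and myeloid precursors, was at 2.59 in replicate 1 of Th1, 3.71 of Th2 and 3.60 of Th17. It was at 0 in replicate 2 of every group. *Mpo* spanned 0 to 4.89 in Th1, 0.0425 to 2.46 in Th2 and 0.106 to 3.02 in Th17. *Prtn3* was detected in both libraries of each effector group (0.357 to 0.850 in Th1, 0.910 to 2.31 in Th2, 0.162 to 0.932 in Th17). *Ctsg* was at most 0.698, and *Ngp* and *Ltf* at most 0.0324, in every library.

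*Gzmb* made up most of the granzyme RNA of Th1 and Th17 cells, and *Gzma* most of that of Th2 cells. All 3 effector subsets held more *Gzma*, *Gzmb*, *Gzmc* and *Srgn* RNA and less *Prf1* RNA than naive cells, so that 4 of the 5 tested members rose and 1 fell in each subset. Over all genes tested, 33.8% rose and 33.5% fell from naive to Th1, 31.8% rose and 38.7% fell to Th2, and 37.5% rose and 29.8% fell to Th17. The median difference of the 5 members was 3.12 for Th2, 2.56 for Th1 and 2.10 for Th17, beside medians over all genes tested of -0.11, -0.01 and 0.08. The 3 comparisons share the naive libraries.

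**Figure D1:**
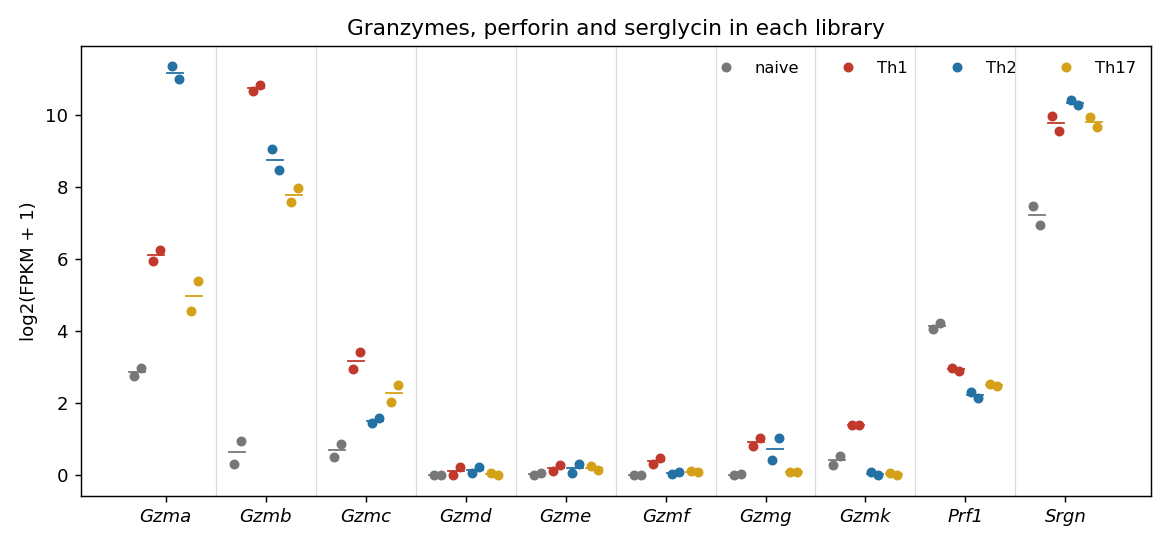
Level of each of the 10 genes in each library as log2(FPKM + 1); points are libraries (2 a group, replicate 1 left), short lines are group means and colours are the 4 groups. *Gzma* stood at 2601 and 2041 FPKM in Th2, *Gzmb* at 1606 and 1823 FPKM in Th1, and *Gzmd*, *Gzme* and *Gzmf* stayed near 0 in all 8 libraries.

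*Gzmb*, which encodes granzyme B, lies on the minus strand of chromosome 14 (mm10 chr14:56258858-56262260), at one end of a cluster of related granzyme genes. It was at 0.252 and 0.941 FPKM in naive cells, from about 7 and 26 fragments. It was at 1606 and 1823 FPKM in Th1, 191 and 248 in Th17, and 532 and 351 in Th2. No 2 groups overlapped, and the order was Th1, Th2, Th17 and naive. The Th1 libraries placed *Gzmb* 29th and 23rd among all 23284 genes by FPKM. Mean FPKM was 2873-fold that of naive cells in Th1, 740.1-fold in Th2 and 367-fold in Th17, and the size of these folds rests on the few naive fragments.

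On the log2(FPKM + 1) scale, *Gzmb* was higher than in naive cells by 10.10 ± 0.28 (SE, n = 2 against 2 libraries) in Th1 (limma adjusted p = 3.6e-07), by 8.12 in Th2 (limma adjusted p = 6.33e-07) and by 7.13 in Th17 (limma adjusted p = 1.18e-06). The Th1 difference ranked 1st of 11198 genes. Between the subsets, *Gzmb* was 3.88-fold higher in Th1 than in Th2 (difference 1.98, limma adjusted p = 0.00148) and 7.82-fold higher in Th1 than in Th17 (2.97, limma adjusted p = 0.000403). Th17 lay below Th2 (-0.99, 95% interval -1.64 to -0.33, limma adjusted p = 0.0263). The last call was lost, at the same direction, without replicate 1 of Th2 (-0.69, adjusted p = 0.131), without replicate 1 of Th17 (-0.80, adjusted p = 0.129), without replicate 2 of Th17 (-1.18, adjusted p = 0.0596), with a pseudocount of 0.1 (adjusted p = 0.133) and with no filter on low values (adjusted p = 0.1).

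The RefSeq window of 250 bases before the start of *Gzmb* is shown because its difference between Th1 and naive cells ranked 1st. It spans chr14:56262335-56262584 of GRCm38.p6 on the minus strand, and runs 5′ to 3′ toward the start. This RefSeq start lies upstream of the gene position given above, which ends at 56262260, and matches are counted from the RefSeq start. Capitals mark matches to 8 motifs, each searched on both strands and counted by itself.
Gzmb: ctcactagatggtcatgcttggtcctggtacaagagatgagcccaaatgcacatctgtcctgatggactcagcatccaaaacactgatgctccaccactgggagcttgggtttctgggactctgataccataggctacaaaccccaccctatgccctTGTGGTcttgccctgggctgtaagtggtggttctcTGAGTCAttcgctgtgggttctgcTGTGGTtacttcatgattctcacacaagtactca
It holds 1 match to the AP-1 motif (TGANTCA, read alike on both strands) beginning at -58 from the start, and 2 matches to the Runx motif (TGTGGT) at -93 and -34. Of 32851 such windows in the RefSeq table, 6.7% hold the AP-1 letters and 14% the Runx letters, which were found before every member but *Gzmk*. Among the 10 genes, the AP-1 letters were found for *Gzmb* only, and no window held the STAT motif (TTCNNNGAA, 7.0% of all windows) or the GATA motif (AGATAA, 10.0%). The TATA letters (TATAAA, 12.4%) were found for *Srgn* only, which has a window before each of its RefSeq starts. They lay in the window at chr10:62527446-62527695, and not in that at chr10:62507758-62508007, which adjoins the position given for the gene below.

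RNA of NK cell markers was looked at beside granzyme B, since NK cells are rich in it. The summed FPKM of 7 markers was 3.96 to 8.89 in naive cells, 16.4 to 23.4 in Th1, 0.158 to 0.232 in Th2 and 4.31 to 4.48 in Th17. Outside Th2, most of it was *Klrd1*, which activated T cells can make as well, at 22.3 and 15.6 in Th1. The other 6 markers were below 1 FPKM in every library. The NK receptor gene *Ncr1* was at 0.139 to 0.209 in the naive libraries and at 0 in all 6 effector libraries. Of the 7 mast cell and basophil markers, *Fcer1a*, *Tpsb2* and *Tpsab1* were at 0 throughout and the sum was at most 0.333.

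*Gzma*, which encodes granzyme A, lies on the minus strand of chromosome 13 (mm10 chr13:113093827-113100981). It was at 5.71 and 6.90 FPKM in naive cells, 61.1 and 75.5 in Th1, 22.3 and 41.0 in Th17, and 2601 and 2041 in Th2. The Th2 libraries stood far above all others and placed *Gzma* 15th among all genes in both replicates, and no 2 groups overlapped. The Th2 mean was 368-fold that of naive cells, 34.0-fold that of Th1 and 73.3-fold that of Th17.

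*Gzma* rose from naive by 8.31 ± 0.28 (SE) in Th2 (limma adjusted p = 6.3e-07), by 3.24 in Th1 (limma adjusted p = 6.13e-05) and by 2.10 in Th17 (limma adjusted p = 0.000494). It was lower than in Th2 by a difference of -5.06 in Th1 (limma adjusted p = 2.51e-05) and of -6.20 in Th17 (limma adjusted p = 1.75e-05), the 15th and the 6th lowest of 11198 genes. These 5 calls held in each of 18 alternatives. The difference between Th1 and Th17 was 1.14 (95% interval 0.47 to 1.81, limma adjusted p = 0.0262). It was lost without replicate 1 of Th1 (1.29, adjusted p = 0.0702), without replicate 2 of Th1 (0.99, adjusted p = 0.135), without replicate 1 of Th17 (0.72, adjusted p = 0.0866), with no filter on low values (adjusted p = 0.101) and in a fit of those 2 groups alone (adjusted p = 0.078).

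The window of *Gzma* (chr13:113100982-113101231, minus strand) is shown for comparison with that of *Gzmb*, since these genes had their highest levels in different subsets.
Gzma: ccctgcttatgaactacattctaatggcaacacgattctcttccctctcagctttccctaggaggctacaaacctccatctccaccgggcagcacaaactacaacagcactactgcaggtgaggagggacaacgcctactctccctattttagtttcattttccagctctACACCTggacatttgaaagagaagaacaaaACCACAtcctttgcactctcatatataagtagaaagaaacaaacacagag
It holds 1 match to the T-box motif (AGGTGT, 11.8% of all windows) on the other strand at -80. It also holds 1 match to the Runx motif on the other strand at -50. The T-box letters were found as well for *Prf1* and for *Gzmk* (at -232 and, on the other strand, at -169). Neither *Gzma* nor *Gzmb* shares a 50-base word of its annotated transcripts with any other gene. Their exons overlap those of no other gene in GENCODE M21. The search took exact matches only, so reads placed with mismatches were not examined. The coding sequences of *Gzma* (780 bases) and *Gzmb* (741 bases) are 54.6% identical.

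The make-up of granzyme RNA turned around between subsets. *Gzma* made up 86.5 and 75.1% of the summed FPKM of the 8 granzymes in naive cells, where that sum was only 6.60 and 9.19. It made up 3.65 and 3.95% in Th1, 10.3 and 13.9% in Th17, and 82.9 and 85.2% in Th2. *Gzmb* made up 95.8 and 95.4% in Th1, 88.1 and 84.4% in Th17, and 16.98 and 14.6% in Th2. In Th2, *Gzma* was 4.88 and 5.82 times *Gzmb*, whereas in Th1 *Gzmb* was 26.3 and 24.2 times *Gzma*, and in Th17 8.54 and 6.05 times. The sum was 3135 and 2395 FPKM in Th2, 1676 and 1912 in Th1, and 217 and 294 in Th17. These shares are given as a description, without a test.

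**Figure D2:**
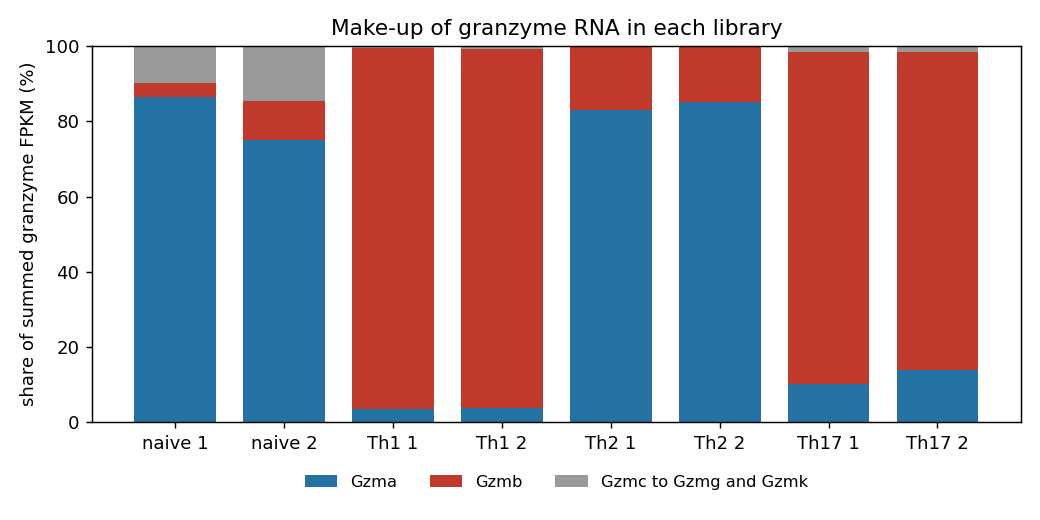
Share of the summed granzyme FPKM (%) taken by *Gzma*, *Gzmb* and the other 6 granzymes in each library (group and replicate number). *Gzmb* fills 95.8 and 95.4% of the Th1 bars and *Gzma* 82.9 and 85.2% of the Th2 bars.

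*Gzmk* encodes granzyme K, a tryptase like granzyme A, and lies 70.9 kb from *Gzma* on the same strand (mm10 chr13:113171874-113180897). Its highest level was in Th1 and not, as for *Gzma*, in Th2. It was at 0.223 and 0.447 FPKM in naive cells (about 3 and 6 fragments), 1.61 and 1.63 in Th1 (about 29 and 28), 0.0528 and 0 in Th17, and 0.0557 and 0 in Th2 (1 and 0 fragments in each). Both Th1 libraries lay above all others, and the Th2 and Th17 libraries lay below the naive ones. Its mean FPKM was under the filter, so it had no test of its own in the fit. With no filter on low values, the difference between Th1 and naive was 0.98 (limma adjusted p = 0.00126) and that between Th1 and Th2 was 1.35 (limma adjusted p = 0.0012), while Th2 and Th17 lay below naive by a difference of -0.37 each (limma adjusted p = 0.0268 and 0.0265). The coding sequences of *Gzmk* and *Gzma* are 55.5% identical.

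*Gzmc*, the next gene to *Gzmb* in the chromosome 14 cluster (mm10 chr14:56231401-56234656), had its lowest effector level in Th2. It was at 0.419 and 0.831 FPKM in naive cells, 6.69 and 9.61 in Th1, 3.08 and 4.71 in Th17, and 1.71 and 1.99 in Th2. The groups did not overlap, and Th17 stood above Th2, the reverse of *Gzmb*. *Gzmc* rose from naive by 2.49 ± 0.23 (SE) in Th1 (limma adjusted p = 8.04e-05) and by 1.58 in Th17 (limma adjusted p = 0.000731). Th1 lay above Th2 by 1.67 (limma adjusted p = 0.00139). These 3 calls held in each of 18 alternatives.

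The smaller differences of *Gzmc* did not hold in all alternatives. The difference between Th2 and naive was 0.82 (limma adjusted p = 0.0149) and was lost without replicate 1 of naive (0.64, adjusted p = 0.0836), without replicate 2 of Th2 (0.75, adjusted p = 0.0795), after quantile normalization (0.45, adjusted p = 0.127) and with no filter (adjusted p = 0.0688). That between Th17 and Th2 was 0.76 (limma adjusted p = 0.0336) and was lost without either Th2 library (0.69 and 0.83, adjusted p = 0.134 and 0.101) and without replicate 2 of Th17 (0.52, adjusted p = 0.181), and also after median scaling (0.62, adjusted p = 0.0583), after quantile normalization (0.58, adjusted p = 0.0876) and with no filter (adjusted p = 0.118). That between Th1 and Th17 was 0.90 (limma adjusted p = 0.0281) and was lost without replicate 2 of Th1 (0.67, adjusted p = 0.146), without replicate 1 of Th17 (0.66, adjusted p = 0.143) and without either Th2 library (adjusted p = 0.0535 and 0.0536), and in 3 further alternatives (adjusted p from 0.0653 to 0.104).

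The other granzymes of the cluster were near the limit of detection. *Gzmd* was at 0 in both naive libraries and at most 0.181 FPKM elsewhere, from no more than 4 fragments a library. *Gzme* was at most 0.246 FPKM and *Gzmf* at most 0.380. *Gzmg* was the highest of the 4, at 0 and 0.0207 FPKM in naive cells, 0.738 and 1.04 in Th1, 0.348 and 1.05 in Th2, and 0.0586 in each Th17 library. The Th1 and Th2 libraries of *Gzmg* overlapped each other and lay above those of naive and Th17. *Gzmf* was higher in both Th1 libraries (0.231 and 0.380) than in any other library (0 to 0.0881). None of these 4 genes was tested in the fit.

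**Figure D3:**
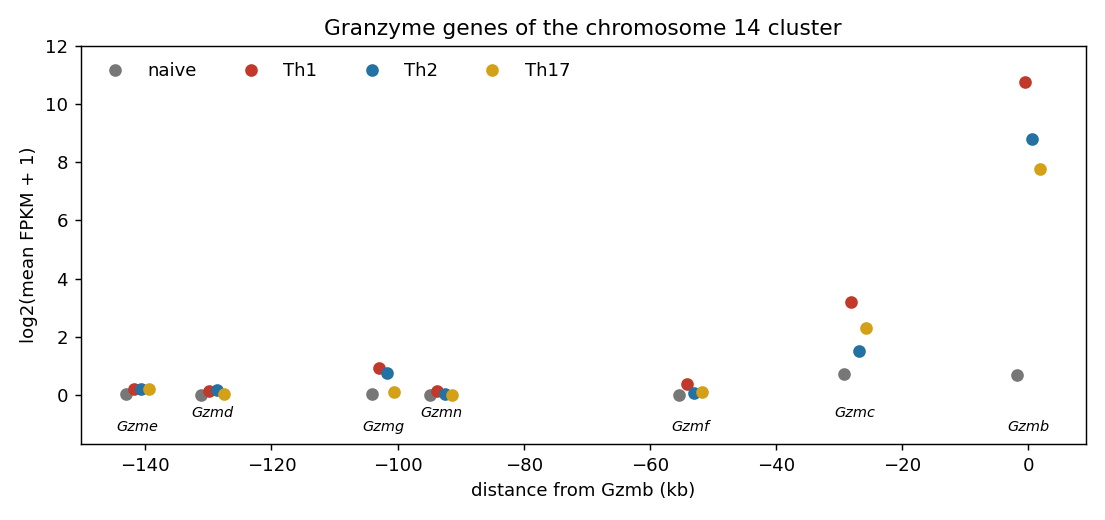
Mean level of each granzyme gene of the chromosome 14 cluster in each group, log2(mean FPKM + 1), against the distance of its start from that of *Gzmb* in kb. Within the 141.2 kb from *Gzmb* to *Gzme*, *Gzmb* stood at 1714 FPKM in Th1 and *Gzmc* at 8.15, and the genes beyond *Gzmc* were all below 1.

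*Gzmc* to *Gzmg* are close paralogs, copies of one gene, and short reads can be placed on the wrong one. Of the 50-base words in their annotated transcripts, 4.14% for *Gzmc*, 21.9% for *Gzmd*, 20.65% for *Gzme*, 19.4% for *Gzmf* and 19.8% for *Gzmg* also occur in another gene, and the exons of *Gzmf* overlap those of Gm4022 on the other strand, where the sources differ on whether the libraries kept the strand. The low values of *Gzmd*, *Gzme*, *Gzmf* and *Gzmg* are therefore uncertain as to which gene they came from, and *Gzmc* to *Gzmg* are also given together. Their summed level was 0.419 and 0.903 FPKM in naive cells, 7.75 and 11.4 in Th1, 3.45 and 4.94 in Th17, and 2.17 and 3.54 in Th2. Coding sequences are 93.3% identical between *Gzmd* and *Gzme* and 89.5% between *Gzme* and *Gzmg*. That of *Gzmc* is 71.5 to 73.4% identical to those of *Gzmd* to *Gzmg*, less than its 76.2% with *Gzmb*. The longest coding run that *Gzmd* and *Gzme* share without a difference is 96 bases, within 1 exon. It is shown, with the aligned stretches of *Gzmg* and *Gzmf*, because no read inside it can separate the first pair. Capitals mark bases that differ from *Gzmd*, on the minus strand at chr14:56130310-56130405 (*Gzmd*), chr14:56118361-56118456 (*Gzme*), chr14:56157317-56157412 (*Gzmg*) and chr14:56206027-56206122 (*Gzmf*) of GRCm38.
Gzmd: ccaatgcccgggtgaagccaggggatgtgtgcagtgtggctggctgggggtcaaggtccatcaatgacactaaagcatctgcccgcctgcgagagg
Gzme: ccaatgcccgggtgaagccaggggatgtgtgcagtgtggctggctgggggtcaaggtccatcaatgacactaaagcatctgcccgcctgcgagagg
Gzmg: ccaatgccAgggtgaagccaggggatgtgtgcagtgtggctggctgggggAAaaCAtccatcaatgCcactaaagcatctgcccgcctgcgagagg
Gzmf: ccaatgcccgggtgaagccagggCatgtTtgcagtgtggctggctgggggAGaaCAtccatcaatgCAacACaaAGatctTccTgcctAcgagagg
*Gzmg* differs from *Gzmd* at 6 of the 96 bases and *Gzmf* at 15. *Gzmb* shares no more than 49 bases in a row with *Gzmc* and no more than 26 with any of *Gzmd* to *Gzmg*. Whether reads of the far more abundant *Gzmb* were placed with mismatches on *Gzmc* was not tested.

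The windows before the starts are alike as well. That of *Gzmd* is 94.8% identical to that of *Gzme* and 80.5% identical to that of *Gzmc*, but 45.1% identical to that of *Gzmb*, close to the 45.2% between the unrelated windows of *Prf1* and *Gzmb*. The windows of *Gzmc* (chr14:56234658-56234907) and *Gzmd* (chr14:56132594-56132843), both on the minus strand, are shown because they are close in sequence while *Gzmc* was at 6.69 and 9.61 FPKM in Th1 and *Gzmd* at 0 and 0.171.
Gzmc: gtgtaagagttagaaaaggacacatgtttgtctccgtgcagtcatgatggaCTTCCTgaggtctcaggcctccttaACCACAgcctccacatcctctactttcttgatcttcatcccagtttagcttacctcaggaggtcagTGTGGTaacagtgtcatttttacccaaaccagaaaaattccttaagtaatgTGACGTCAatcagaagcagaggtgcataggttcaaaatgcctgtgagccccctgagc
Gzmd: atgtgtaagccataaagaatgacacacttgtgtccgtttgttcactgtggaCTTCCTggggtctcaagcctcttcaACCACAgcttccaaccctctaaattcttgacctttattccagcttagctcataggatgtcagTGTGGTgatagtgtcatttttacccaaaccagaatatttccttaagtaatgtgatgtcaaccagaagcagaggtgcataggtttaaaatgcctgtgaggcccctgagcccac
Both hold the Runx letters on each strand (in *Gzmc* at -174 and -108) and the ETS letters (AGGAAG, 29.5% of all windows) on the other strand at -199. *Gzmc* holds the ATF/CREB letters (TGACGT, 6.5% of all windows) on both strands at -57 and -55, and the *Gzmd* window does not. The windows of *Gzmf* (at -82 and -80) and *Gzmg* (at -77 and -75) hold these letters on both strands too. Both of those genes were near the limit of detection, with Th1 means of 0.305 and 0.889 FPKM.

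*Prf1*, which encodes perforin, was the one of the 5 tested members that fell. It lies on the plus strand of chromosome 10 (mm10 chr10:61297836-61304263). It was at 15.7 and 17.5 FPKM in naive cells, 6.85 and 6.49 in Th1, 4.81 and 4.57 in Th17, and 3.93 and 3.39 in Th2. Both naive libraries lay above all effector libraries, and the subsets did not overlap, with Th1 highest and Th2 lowest. The naive mean was 2.49-fold that of Th1, 4.54-fold that of Th2 and 3.54-fold that of Th17.

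The difference of *Prf1* from naive was -1.20 ± 0.10 (SE) in Th1 (limma adjusted p = 5.54e-05), -1.92 in Th2 (limma adjusted p = 4.53e-06) and -1.63 in Th17 (limma adjusted p = 1.05e-05), and these calls held in each of 18 alternatives. Th1 lay above Th2 by 0.72 (limma adjusted p = 0.00157) in all 18 alternatives. Th1 lay above Th17 by 0.43 (limma adjusted p = 0.022), a call lost when either Th1 library or either Th17 library was left out (adjusted p from 0.0835 to 0.123). Between Th17 and Th2 the difference was 0.29 (95% interval 0.05 to 0.53, limma adjusted p = 0.0556), which did not pass the test, though it did with a pseudocount of 0.1 (adjusted p = 0.0477) and with the replicate number as a term of the fit.

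Both markers of CD8 T cells, which hold perforin, were higher in the naive libraries. *Cd8b1* was at 90.5 and 52.8 FPKM in naive cells and 8.77 to 12.9 in the effector libraries, and *Cd8a* was at 2.94 and 1.77 in naive cells and at most 0.268 elsewhere. The naive cells had been isolated as CD4 T cells on a magnetic column before the sort. Without replicate 1 of naive, the *Prf1* differences from naive were -1.27 in Th1, -1.7 in Th17 and -1.99 in Th2. The naive library that remained still held *Cd8b1* at 52.8 FPKM, above every effector library, so these values cannot show the part of CD8 T cells. The NK receptor gene *Ncr1*, 1 of 7 listed NK cell markers, was also detected in the naive libraries only, at 0.139 to 0.209 FPKM. The summed FPKM of the 7 was highest in Th1, at 16.4 to 23.4, and was 3.96 to 8.89 in naive cells. It was 4.31 to 4.48 in Th17 and 0.158 to 0.232 in Th2. The part of CD8 T cells or NK cells in the *Prf1* difference was not tested. The window of *Prf1* (chr10:61297586-61297835, plus strand) is shown because it was the only member with its highest level in naive cells.
Prf1: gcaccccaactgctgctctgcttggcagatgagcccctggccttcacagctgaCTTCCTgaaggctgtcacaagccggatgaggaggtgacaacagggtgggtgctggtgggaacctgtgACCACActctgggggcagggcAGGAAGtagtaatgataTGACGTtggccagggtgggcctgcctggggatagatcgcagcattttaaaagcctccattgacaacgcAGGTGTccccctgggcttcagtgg
It holds the T-box letters at -24, the ATF/CREB letters at -92, the Runx letters on the other strand at -130, and the ETS letters at -109 and, on the other strand, at -197.

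*Srgn* encodes serglycin, the proteoglycan core protein to which granzymes and perforin bind inside the granule and which other blood cells use for their own granules. It lies on the minus strand of chromosome 10 (mm10 chr10:62494428-62507755), 1190.2 kb from *Prf1*. It was at 178 and 122 FPKM in naive cells, 1008 and 755 in Th1, 976 and 816 in Th17, and 1359.7 and 1225 in Th2. Every effector library lay above both naive libraries, both Th2 libraries lay above those of Th1 and Th17, and Th1 and Th17 overlapped. *Srgn* rose from naive by 2.56 ± 0.23 (SE) in Th1 (limma adjusted p = 6.59e-05), 3.12 in Th2 (limma adjusted p = 2.05e-05) and 2.59 in Th17 (limma adjusted p = 5.54e-05).

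Between subsets, the differences of *Srgn* did not pass the test in the fit of group means, and this depended on the setting. They were -0.56 for Th1 against Th2 (95% interval -1.10 to -0.03, limma adjusted p = 0.0823), -0.53 for Th17 against Th2 (-1.07 to 0.003, limma adjusted p = 0.0978) and -0.03 for Th1 against Th17 (-0.57 to 0.50, limma adjusted p = 0.944). The first of these passed without replicate 1 of naive (adjusted p = 0.0497), and the first and the second passed after quantile normalization (adjusted p = 0.0247 and 0.0383) and with the replicate number as a term of the fit. *Srgn* was higher in replicate 1 than in replicate 2 of every group. *Elane* of neutrophil precursors was higher in replicate 1 too, but in naive cells only at 0.061 FPKM against 0. The part of such cells in the level of *Srgn* was not tested.

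**Figure D4:**
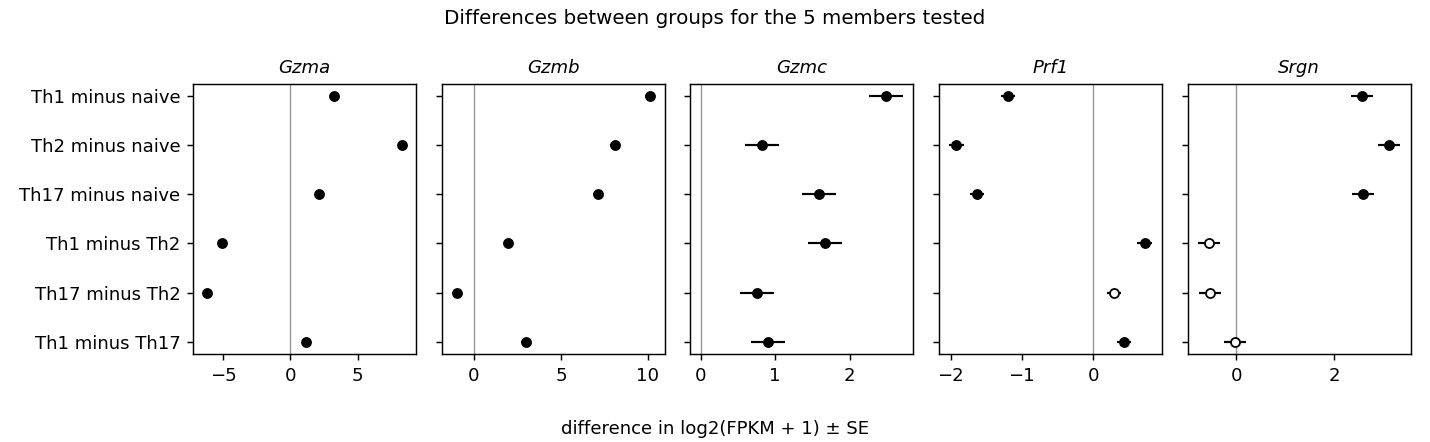
Differences between groups in log2(FPKM + 1) with their SE for the 5 members tested; each panel has its own scale, filled points passed limma's adjusted p of 0.05 and open points did not. *Gzmb* spans -0.99 to 10.10 and *Gzma* -6.20 to 8.31, *Prf1* lies below 0 against naive in all 3 subsets, and *Srgn* is open in the 3 comparisons between subsets.

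Between the subsets, 3 of the 5 tested members were higher and 1 was lower in Th1 than in Th2, where 27.4% of all genes tested were higher and 16.9% lower. In Th17 against Th2, 1 was higher and 2 were lower, with 31.7% of genes higher and 12% lower. In Th1 against Th17, 4 were higher and none was lower, with 9.17% of genes higher and 16% lower by limma, and no member was lower at any unadjusted p under 0.05 there. The median difference of the 5 members was 0.72, -0.53 and 0.90 in these comparisons, beside 0.11, 0.18 and -0.08 over all genes. Scaling the libraries by their medians moved the share of higher calls over all genes from 61.8 to 50.2% for Th1 against Th2 and from 72.6 to 52.3% for Th17 against Th2, and quantile normalization moved it from 36.5 to 49.7% for Th1 against Th17. Neither scaling turned the direction of a member's call. Without replicate 2 of Th1 or replicate 1 of Th17, 1 member passed for Th1 against Th17 in place of 4, and 2 did without replicate 1 of Th1. Without replicate 1 of Th2 or replicate 2 of Th17, 1 passed for Th17 against Th2 in place of 3.

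Other genes of the granule were followed from a list of 9, of which 7 were tested. From naive to Th1, 5 rose and 2 fell, to Th2 2 rose and 2 fell, and to Th17 1 rose and 2 fell. Their median difference from naive was 1.42 in Th1, 0.17 in Th17 and -0.13 in Th2, and 4 were higher and 3 lower in Th1 than in Th2. Over all genes tested, 33.8% rose and 33.5% fell from naive to Th1, and 31.8% rose and 38.7% fell to Th2. To Th17, 37.5% rose and 29.8% fell. In Th1 against Th2, 27.4% were higher and 16.9% lower. These shares also stand beside the counts of the lists that follow. *Nkg7*, a granule membrane protein of killer cells, was at 1.79 and 2.30 FPKM in naive cells, 96.6 and 123 in Th1, 2.80 and 2.99 in Th17, and 1.67 and 1.58 in Th2, and the difference between Th1 and Th2 was 5.39 (limma adjusted p = 2.02e-06). *Ctsw*, a cathepsin of cytotoxic cells, was at 39.9 and 53.9 in Th1 and at most 17.5 elsewhere. *Fasl*, the death ligand that kills without granules, was at 7.39 and 7.12 in Th1, at most 0.320 in Th2 and Th17, and at 2.20 and 1.98 in naive cells. *Cst7*, which encodes cystatin F, an inhibitor of the cathepsins that mature granzymes, was highest in Th2, as *Gzma* was, at 438 and 396 against 129 to 144 in Th1 and Th17 and 10.8 and 7.40 in naive cells. *Ctsl* was also highest in Th2, at 41.7 and 34.4. *Ctsc*, whose product cathepsin C trims progranzymes, was lowest in Th2, at 9.54 and 7.95 against 15.4 to 23.3 in the other groups. *Gzmm* (at most 0.811) and *Gzmn* (at most 0.0912) were not tested.

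For the machinery that moves and fuses granules, 11 genes were listed. Of these, 10 were tested, with 5 higher than in naive cells in Th1, 2 higher and 2 lower in Th2, and 4 higher and 1 lower in Th17. Their median difference from naive was 0.35 in Th1, 0.26 in Th17 and -0.09 in Th2, and 5 were higher and 1 was lower in Th1 than in Th2. Of all genes tested, 33.8% were higher and 33.5% lower than naive in Th1, and 31.8% and 38.7% in Th2. In Th17, the shares were 37.5% and 29.8%. *Sytl2*, an effector of the granule docking protein Rab27a, was at 25.1 and 30.6 FPKM in Th1, 3.57 and 3.68 in naive cells and at most 1.09 in Th2 and Th17. *Rab27a* was at 34.3 and 34.6 in Th1, 22.4 and 20.7 in Th17, and 13.8 to 14.6 in naive and Th2. *Stx11*, a syntaxin of the granule fusion step, rose in every subset, from 0.876 and 0.725 in naive cells to 8.29 to 16.0. *Vamp7* is listed at 0 in every library, at a locus on the scaffold X_GL456233_random, so the 0 is not read as absence of its RNA.

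**Figure D5:**
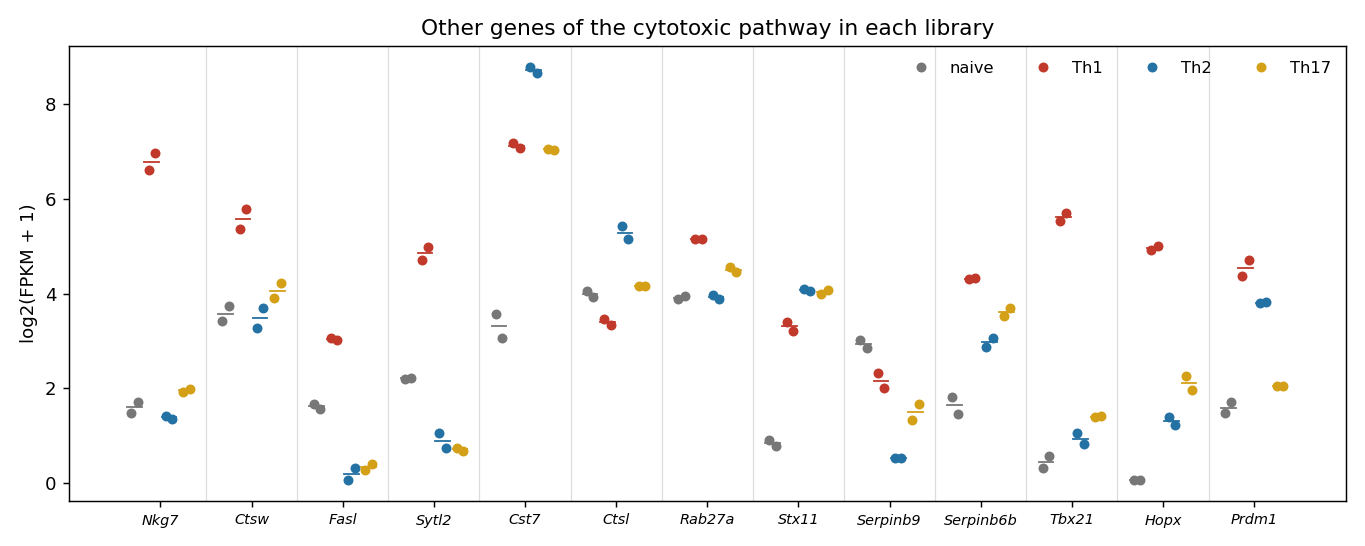
Level of 13 other genes of the pathway in each library as log2(FPKM + 1); points are libraries, lines are group means and colours are the groups. *Nkg7*, *Ctsw*, *Fasl*, *Sytl2*, *Tbx21* and *Hopx* were highest in Th1, whereas *Cst7* and *Ctsl* were highest in Th2.

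Serpins that inhibit granzymes did not move as one. Of 6 listed, 4 were tested, with 2 higher and 1 lower than in naive cells in each subset. For comparison, the higher share of all genes tested was 33.8% (Th1), 31.8% (Th2) or 37.5% (Th17). The lower share was 33.5, 38.7 or 29.8%, in the same order. Median differences of the serpins were 1.10 in Th1, 0.92 in Th17 and 0.31 in Th2. *Serpinb9*, the inhibitor of granzyme B, fell from 7.16 and 6.25 FPKM in naive cells to 4.0 and 3.04 in Th1, 1.52 and 2.21 in Th17, and 0.441 and 0.447 in Th2. *Serpinb6b* rose from 2.55 and 1.76 in naive cells to 18.7 and 19.0 in Th1, 10.6 and 12.03 in Th17, and 6.37 and 7.37 in Th2.

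Of 12 transcription factors of cytotoxic lymphocytes, 9 were tested, with 6 higher in each subset than in naive cells and 2 lower in Th2. Taking every gene tested, Th1 had 33.8% higher and 33.5% lower. Th2 had 31.8% higher and 38.7% lower, while Th17 had 37.5% higher and 29.8% lower. The median difference of these factors from naive was 1.78 in Th1, 0.95 in Th17 and 1.01 in Th2. *Tbx21*, which encodes T-bet, and *Hopx* had their highest levels in Th1, *Hopx* at 29.0 and 30.9 FPKM against 0.0485 and 0.0487 in naive cells and at most 3.79 in Th2 and Th17. *Prdm1*, which encodes Blimp-1, was at 19.8 and 25.2 in Th1, 12.9 and 13.03 in Th2, 3.17 and 3.12 in Th17, and 1.78 and 2.28 in naive cells. The difference of *Tbx21* between Th2 and naive passed in 15 of 18 alternatives, and that of *Prdm1* between Th17 and naive in 13, with the other sign in 1. *Runx3* was at 15.6 and 18.9 in naive cells and 42.8 to 69.2 in the effector libraries. *Eomes*, the T-box factor of CD8 T cells, was at most 1.07 and not tested.

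For each tested member, the 3 other genes with the most similar pattern over the 8 libraries were sought by Pearson's r on the log2 scale. Since the 8 libraries fall into 4 groups, these values describe likeness only. The closest to *Gzma* were *Phospho1* (r = 0.997), *Gpt2* and *B3galtl*, and to *Gzmb* *Cd47* (r = 0.997), *Arhgap19* and *Dkkl1*. Those closest to *Gzmc* were *E2f2* (r = 0.993), *4930534B04Rik* and *Dusp5*. *Trim21* (r = 0.997), *Slfn8* and *Cmah* were closest to *Prf1*, and *Anp32e* (r = 0.996), *Gatad1* and *AI662270* to *Srgn*.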

How the data were processed

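RNA from 8 libraries was sequenced. Per the labels, the authors processed the reads with Bowtie 0.12.8, TopHat 1.3.2 and Cufflinks 2.0.2 on mm10, and deposited FPKM per gene with its interval and an estimation status, which was OK for every member. The methods name an unstranded library kit and the labels a stranded one. No read counts were used, and the depth was estimated from the intervals, taken as 2 SD of counting error.

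Rows of 1 symbol were summed. Values were fitted as log2(FPKM + 1) with limma 3.58.1 in R 4.3.3 (4 group means, mean-variance trend, two-sided, Benjamini-Hochberg over 11198 genes, threshold 0.05), after a test on simulated data. Tables used Python 3.11.15 and pandas 2.3.3. The members, gene lists and the rule for naming genes (members, listed genes, and the 3 closest by r) were chosen with earlier results of these data known. Sequences are from RefSeq (GRCm38.p6 windows, all 10 genes matched) and GENCODE M21. Alternatives were another pseudocount, 2 other filters, 2 scalings, the compared groups alone, no trend, the replicate block, the largest row per symbol, an OK status throughout, and each library left out. A list of granzyme substrates is not reported here.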

Additional observations from a re-analysis of the deposited data

Results flagged for a closer look

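The effect of culture on 4 members differed between subsets, by limma's test of the difference itself. For *Gzma*, Th17 and Th2 differed by -6.20 on the log2(FPKM + 1) scale, the largest of its differences between subsets. For *Gzmb*, Th1 and Th17 differed by 2.97. For *Gzmc*, Th1 and Th2 differed by 1.67, and for *Prf1* the same subsets differed by 0.72. With 2 libraries a group, no library could be tested as standing apart from its group.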

How the results depend on the processing

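Of 540 values of the 5 tested members recomputed under 18 alternatives, 502 kept their side of the threshold, 31 lost the call and 7 gained one. No called difference changed sign, while that of *Srgn* between Th1 and Th17, which was not called, ranged from -0.24 to 0.18. With no filter on low values, 8 members passed for Th1 against naive and 1 for Th17 against Th2, where 5 and 3 had passed. The members added for Th1 against naive were *Gzmk* and others among *Gzmd* to *Gzmg*, whose values rest on few fragments. Of the 23284 genes then tested, 4178 were higher and 4030 lower in Th1 than in naive cells. In Th17 against Th2, 3558 were higher and 1489 lower. In a fit of the compared groups alone, 2 passed for Th1 against Th17 in place of 4. With 1 library left out, 1 to 4 members passed for Th1 against Th17 and 1 to 3 for Th17 against Th2, while over all genes the count was 3106 to 4936 for Th1 against Th2 (4961 in all), 2738 to 4876 for Th17 against Th2 (4885) and 1558 to 2759 for Th1 against Th17 (2815). The counts over all genes that moved by over 1.5 times were those without replicate 2 of Th1 (3106) and of Th2 (3208) for Th1 against Th2, without replicate 2 of Th2 (3037) and of Th17 (2738) for Th17 against Th2, and without either Th1 library (1708 and 1558) or either Th17 library (1734 and 1629) for Th1 against Th17. A lone library is then assumed to vary like the other groups. Leaving out a library removes a sample; beyond that, the cause of these changes was not tested.

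Median scaling moved the median difference over all genes from 0.184 to 0.0165 for Th17 against Th2 and from -0.112 to 0.0489 for Th2 against naive, and quantile normalization moved it from 0.0765 to -0.0875 for Th17 against naive.

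The labels do not say that libraries with 1 number were cultured together. Their deviations correlated across genes (r from 0.138 to 0.294 over the 6 pairs of groups). With the replicate block, 5 members passed for Th17 against Th2: *Srgn* (adjusted p = 0.0123) and *Prf1* (0.0456) were added, and *Srgn* passed for Th1 against Th2 (0.00955). The block changed no other member's call. Depth limits *Gzmd*, *Gzme*, *Gzmf*, *Gzmg* and *Gzmk*, whose values rest on few fragments.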

Other observations

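Genes beside the granzymes were read off by position, within 500 kb on mm10, and those named here were chosen after their values were seen. On chromosome 13, *Esm1* lies on the far side of *Gzmk* from *Gzma* (chr13:113209659-113218104). Its mean FPKM was 9.77 in Th1 and 7.83 in Th2, against 0.208 in naive and 0.193 in Th17 cells. *Gpx8*, on the other side of *Gzma* (chr13:113042763-113046388), had its highest mean in Th2 (14.3, with 5.63 in Th1, 2.18 in Th17 and 0 in naive cells), and so did *Snx18* (25.5, with 11.5, 9.46 and 5.34). *Gzma* was highest in Th2 as well, while *Gzmk*, which lies between *Gzma* and *Esm1*, had its highest in Th1. Near *Prf1*, *Adamts14* (chr10:61197112-61273438) had a naive mean of 8.26 and effector means of 0.343 (Th1), 0.375 (Th17) and 0.907 (Th2), and it fell in each subset by limma.

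A list of 14 neighbours had been drawn up by name, of which 6 were tested. It held *Ctla2a*, which is on chromosome 13 but not within 500 kb of a granzyme, and *Stxbp6*, which is on another chromosome. From naive cells, 3 rose and 1 fell in Th1 and in Th2, and 2 rose and 1 fell in Th17, with median differences of 0.45 in Th1, 0.10 in Th17 and 1.04 in Th2. Over all genes tested, 33.8% rose and 33.5% fell in Th1, and 31.8% rose and 38.7% fell in Th2. In Th17, 37.5% rose and 29.8% fell. The mast cell protease genes *Mcpt1*, *Mcpt2*, *Mcpt4*, *Mcpt8* and *Cma1*, relatives of the granzymes on chromosome 14, were at most 0.157 FPKM in every library.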
